A study of Macaca mulatta with 8 samples.

Results

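TSHZ3 and BHLHE22 encode transcription factors of the developing and mature cerebral cortex, and their transcripts were followed here in a prefrontal and a motor area of the rhesus macaque. They were identified through the transcript identifiers printed on the array: 1 probe stood for TSHZ3 (A_01_P011413, designed on XM_001103809) and 1 for BHLHE22 (A_01_P019574, designed on XM_001092364). They were 2 of 835 genes that could be given a name, on an array of 20217 probes. The study compared area 46 (A46), a prefrontal association area, with the primary motor cortex (M1), and its title asks which genes differ between a motor and a prefrontal association cortex. The tissue came from 4 adolescent Macaca mulatta aged 2.6 to 2.7 years, bred in group cages, without experimental treatment and perfused with saline before dissection. A46 was taken from both banks of the principal sulcus and M1 from its forelimb region, all from left hemispheres. Each area was measured on 4 single-colour arrays, numbered 1 to 4 within the area. Each sample was a dissected block of cortex, so that fewer cells of a type and less RNA per cell cannot be told apart.

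TSHZ3 belongs to the teashirt family of zinc finger proteins with a homeodomain. In mice it is active in cortical projection neurons, and loss of 1 gene copy in humans and mice has been linked to autism-related traits. BHLHE22, also called BHLHB5, is a basic helix-loop-helix repressor related to the Olig factors. In mice it is active in postmitotic neurons of the cortex in a pattern that is graded over the cortical surface, and its loss disturbs the molecular identity of cortical areas and the tract from motor cortex to spinal cord. Both genes are therefore known chiefly from development, whereas the animals here were adolescent.

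The TSHZ3 probe was brighter in A46 than in M1 in each of the 4 same-numbered pairs of arrays, by 1.44-fold to 1.60-fold. All 4 pairs stood higher in A46 for 17.0% of the tested probes. The TSHZ3 difference passed the test across all probes when the replicate number was used as a block. So did 0.973% of the tested probes with A46 higher. It did not pass without the block, and the blocked call was lost without the pair numbered 1, 2 or 4. The labels do not tie a number to an animal, so the pairs were inferred. The BHLHE22 probe was brighter in A46 in 3 of the 4 pairs, by up to 1.90-fold, and stood at 0.994-fold in the remaining pair, and it passed in neither fit. Levels are log2 values from which the array's own 75th percentile was taken off, and differences are A46 minus M1.

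The arrays of the 2 later scan days stood apart from the others. A46 replicates 3 and 4 and M1 replicate 4 had scores of 37.0 to 44.8 on the first principal component (48.4% of the variance of the tested probes), against -37.4 to -16.6 for the remaining 5 arrays. Each array had 71.4% to 77.3% of its probes well above background. Its upper quartile of intensity was 1232 to 2008 scanner units, while negative controls had medians of 1.11 to 4.90 units. Precision is limited by there being 4 arrays of each area.

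The processed intensity of TSHZ3, before any scaling between arrays, was 747, 864, 878 and 703 scanner units in A46 replicates 1 to 4. In M1 it was 470, 522, 510 and 498 units. In these units the areas did not overlap, which held for 1.00% of all tested probes in the direction of A46. The processed intensity of BHLHE22 was 572, 617, 467 and 505 units in A46 and 369, 302, 412 and 479 units in M1. Here A46 replicate 3 lay below M1 replicate 4, so that the areas overlapped.

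**Figure D1:**
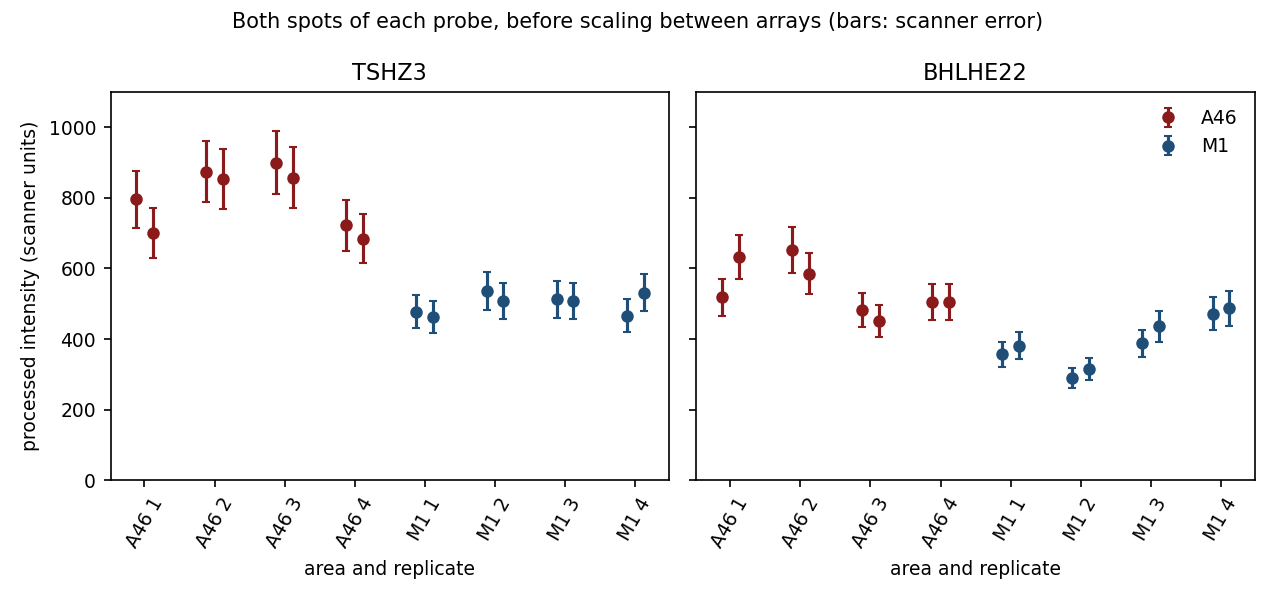
Processed intensity in scanner units (y axis) of both spots of the TSHZ3 and BHLHE22 probes on each array, A46 arrays in red and M1 arrays in blue, with the scanner software's own error as bars. The dimmest TSHZ3 spot lies at 685 units in A46 and the brightest at 537 units in M1, whereas the BHLHE22 spots of A46 replicate 3, at 482 and 452 units, reach down to those of M1 replicate 4, at 472 and 487 units.

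Both probes were well above background on 8 of 8 arrays, and none of their spots was saturated or called an outlier. The spots lay 13.7 to 31.8 times over their local background for TSHZ3 and 8.64 to 21.5 times for BHLHE22. The 2 spots of TSHZ3 on an array differed by a median of 0.074 log2 units, and by at most 0.19. Those of BHLHE22 differed by a median of 0.11 and by at most 0.29, on A46 replicate 1. These values cover the reading of 1 array only, not the spread between samples.

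After the shift to the 75th percentile, TSHZ3 stood at -0.86, -0.67, -1.08 and -1.33 in A46 replicates 1 to 4, and at -1.39, -1.29, -1.67 and -2.01 in M1 replicates 1 to 4. In that scale 3 of the 4 A46 arrays lay above all M1 arrays, and A46 replicate 4 lay just below M1 replicate 2, so that the areas overlapped, whereas 2.97% of the tested probes had no overlap with A46 higher. The areas averaged -0.98 ± 0.28 in A46 and -1.59 ± 0.32 in M1 (SD, n = 4 each). The difference was 0.61 ± 0.20 log2 units (SE), or 1.52-fold, with a 95% interval of 1.10-fold to 2.10-fold. It missed the threshold over all probes (limma adjusted p = 0.356). In this fit 27 of 14698 tested probes (0.184%) had an adjusted p under 0.05, 7 of them (0.0476%) higher in A46, and neither TSHZ3 nor BHLHE22 was among them. The unadjusted limma p of TSHZ3 was 0.0163, and 9.44% of the probes had one under 0.05, 4.18% with A46 higher. An exact two-sided permutation test of TSHZ3 over the 8 arrays gave p = 0.0571, where the smallest p that 4 against 4 arrays allow is 0.0286.

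On the shifted scale, the level of TSHZ3 moved with the replicate number in both areas alike. Before the shift, the M1 arrays stood at 470 to 522 units and the A46 arrays at 703 to 878 units. The 75th percentiles taken off were 1232, 1273, 1623 and 2008 units in M1 replicates 1 to 4. In A46 they were 1359, 1372, 1852 and 1768 units. The part of this shift in the pattern was not tested. A46 minus M1 was 0.52, 0.62, 0.59 and 0.68 log2 units in the pairs numbered 1 to 4. The SD of these 4 differences was 0.065, against 0.28 in A46 and 0.32 in M1 between the arrays of an area. Of all tested probes, 4.10% had pair differences with a smaller SD, and the median probe had an SD of 0.22. The deviations from the area means were 0.12, 0.32, -0.092 and -0.35 in A46 and 0.20, 0.30, -0.081 and -0.42 in M1. With the replicate number as a block the difference was 0.61 ± 0.08 (blocked SE), with a 95% interval of 1.33-fold to 1.74-fold, and it passed (limma adjusted p = 0.0312).

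In the blocked fit 380 of the tested probes (2.59%) passed, 143 of them (0.973%) higher in A46, as TSHZ3 was. All 4 pairs were higher in A46 for 17.0% of the tested probes. With 4 pairs the exact two-sided sign-flip test, which turns the sign of whole pairs, can reach no p below 0.125, and TSHZ3 was at that value. The SE of TSHZ3 was 2.55 times as large without the block as with it, and 9.49% of the tested probes had a larger ratio. The blocked call needed most of the pairs, as did those of the array at large. Without the pair numbered 1, 2 or 4, the blocked fit passed 3, 0 and 2 of the 14698 probes. Without that numbered 3 it passed 403. The TSHZ3 call held without the pair numbered 3 (difference 0.61, limma adjusted p = 0.0376). It was lost without the pair numbered 1 (0.63, limma adjusted p = 0.168), without that numbered 2 (0.60, adjusted p = 0.147) and without that numbered 4 (0.58, adjusted p = 0.145).

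**Figure D2:**
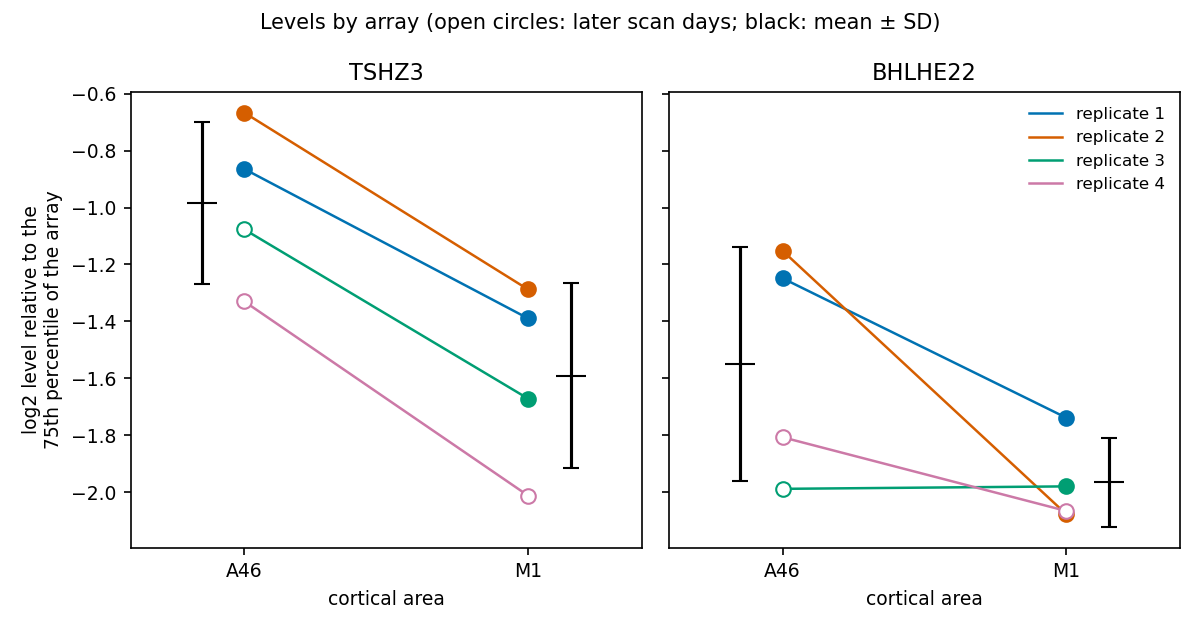
Log2 level after the shift by the 75th percentile (y axis) of TSHZ3 and BHLHE22 in A46 (left) and M1 (right), with a line for each replicate number, open circles for arrays of the later scan days, and the mean ± SD of each area in black. The 4 TSHZ3 lines run nearly parallel, falling by 0.52 to 0.68 units towards M1, while the BHLHE22 lines range from flat to a drop of 0.93 units.

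BHLHE22 stood at -1.25, -1.15, -1.99 and -1.81 in A46 replicates 1 to 4, and at -1.74, -2.08, -1.98 and -2.07 in M1 replicates 1 to 4. A46 replicates 1 and 2 lay above all other arrays, and A46 replicates 3 and 4 lay within the range of M1. The areas averaged -1.55 ± 0.41 in A46 and -1.97 ± 0.16 in M1 (SD, n = 4 each). The difference was 0.42 ± 0.21 log2 units (SE), or 1.33-fold, with a 95% interval of 0.963-fold to 1.85-fold. It missed the threshold (limma adjusted p = 0.605, unadjusted p = 0.0758). The exact two-sided permutation test over the 8 arrays gave p = 0.143.

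In pairs, A46 minus M1 for BHLHE22 was 0.49, 0.93, -0.0086 and 0.26 log2 units for the numbers 1 to 4. The SD of these differences, 0.40, was larger than that of 81.2% of the tested probes. The SE of BHLHE22 was 1.28 times as large without the block as with it, and 76.0% of the tested probes had a larger ratio. The blocked SE was 0.16 and the blocked interval ran from 1.01-fold to 1.76-fold. The blocked limma adjusted p was 0.218, and its unadjusted p was 0.0427, below 0.05 as for 21.3% of the tested probes, 10.3% with A46 higher. The exact sign-flip test over the 4 pairs gave p = 0.250. BHLHE22 thus missed the threshold over all probes in both fits. Its interval held equal levels without the block and lay just above them with it. Both intervals also hold differences as large as that of TSHZ3.

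The areas differed by 0.19 ± 0.19 log2 units more for TSHZ3 than for BHLHE22 (SE), with a 95% interval of -0.28 to 0.66. The exact two-sided permutation test of this value over the 8 arrays gave p = 0.314, and 3 of the 4 pairs showed the larger difference for TSHZ3. The call of TSHZ3 in the blocked fit and the lack of one for BHLHE22 are therefore no measured difference between the genes.

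**Figure D3:**
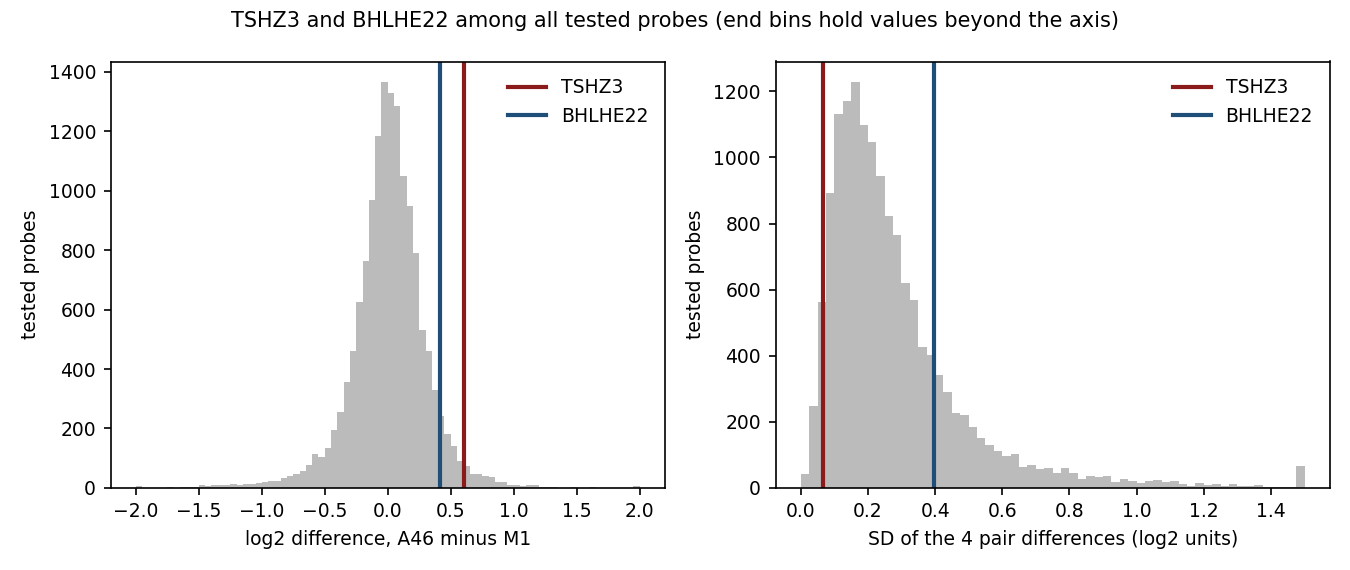
Number of tested probes (y axis) by log2 difference, A46 minus M1 (left), and by the SD of the 4 pair differences in log2 units (right), with lines at the values of TSHZ3 and BHLHE22. Both differences lie to the right of the bulk of probes, at 0.61 and 0.42, but TSHZ3 lies near the low end of the pair SD, at 0.065, and BHLHE22 in its upper part, at 0.40.

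In size, neither difference was among the most extreme of the array. A difference larger in absolute size was seen for 5.25% of the tested probes in the case of TSHZ3 and for 12.4% in that of BHLHE22. In the direction of A46, 2.31% of the probes differed by at least as much as TSHZ3 and 6.15% by at least as much as BHLHE22. The median over all tested probes was 0.015 log2 units. In the blocked fit, 0.973% of the probes had a smaller unadjusted limma p than TSHZ3 and 19.6% a smaller one than BHLHE22.

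After the shift, TSHZ3 was lower on the arrays of the later scan days in both areas, and BHLHE22 in A46. In A46, TSHZ3 stood at -1.33 and -1.08 on the 2 later arrays and at -0.86 and -0.67 on the 2 earlier ones. In M1, it stood at -2.01 on the later array and at -1.67 to -1.29 on the 3 earlier ones. Such an order in both areas was seen for 17.6% of the tested probes. BHLHE22 stood at -1.99 and -1.81 on the later and at -1.25 and -1.15 on the earlier arrays of A46, while in M1 the later array, at -2.07, lay within the range of the earlier ones, -2.08 to -1.74. Before the shift, the later A46 arrays stood at 878 and 703 units for TSHZ3, the brightest and the dimmest of A46. M1 replicate 4, the later array of M1, stood at 498 units within a range of 470 to 522. For BHLHE22 that array was the brightest of M1, at 479 units, while the later A46 arrays, at 467 and 505, were the dimmest. The 75th percentile was 1768 to 2008 units on the later arrays and 1232 to 1623 on the earlier ones. Both arrays of a pair were scanned on the same day in 3 of the 4 pairs. The parts of the scan day and of the shift in these levels were not tested.

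On the 5 arrays of the earlier scan days, A46 and M1 did not overlap for either gene, as for 12.3% of all tested probes in the direction of A46. Without the 3 later arrays the difference was 0.68 ± 0.18 log2 units (SE) for TSHZ3 and 0.73 ± 0.16 for BHLHE22, with limma adjusted p of 0.400 and 0.322, in a fit of 2 against 3 arrays in which no probe passed and 1159 had an unadjusted p under 0.05. Within the scan days that held both areas, TSHZ3 differed by 0.81, 0.52 and 0.68 log2 units on the days numbered 1, 2 and 3. BHLHE22 differed by 0.88, 0.49 and 0.26 units on these days. A46 replicate 3 was the only array of the last day and M1 replicate 3 was scanned on the first, so that the pair numbered 3, in which BHLHE22 was equal, also compared scan days. When scan day entered as a fixed block, TSHZ3 stood at 0.69 (limma adjusted p = 0.0756) and BHLHE22 at 0.58 (adjusted p = 0.114).

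**Figure D4:**
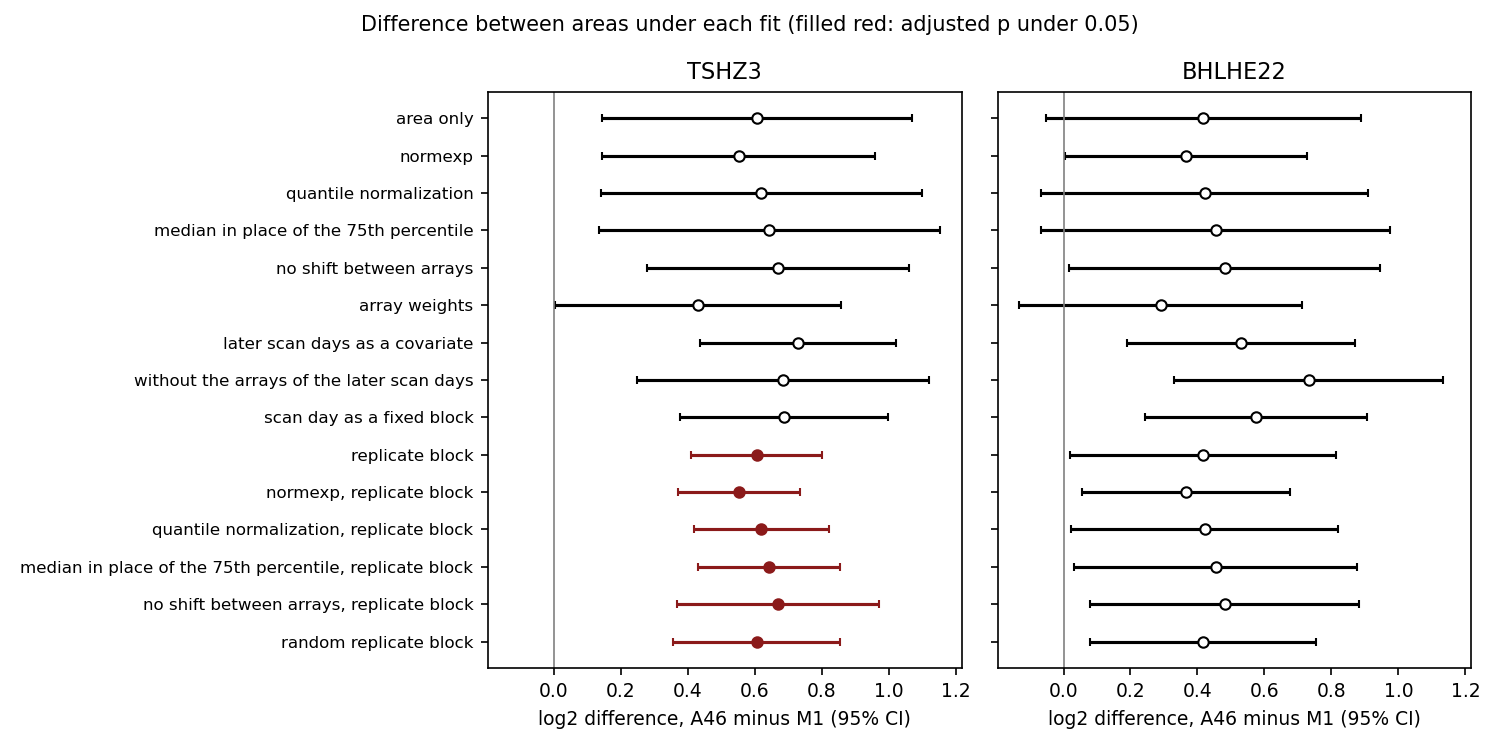
Log2 difference, A46 minus M1, with its 95% interval (x axis) for TSHZ3 and BHLHE22 under 15 of the fits, filled red where the limma adjusted p was under 0.05. TSHZ3 stays above 0 under each fit drawn and passes in those with the replicate block, whereas BHLHE22 passes in none, and its interval crosses 0 in 4 of the fits without the replicate block.

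Few relatives of the 2 genes could be read beside them, because most probes carried no gene name. Of the 3 teashirt genes, TSHZ3 alone had a named probe. Of the 16 Olig, NeuroD and related proneural factors, BHLHE22 was the only one tested, while NEUROD4 and NEUROG1, which act in neuronal differentiation, were well above background on 0 of 8 arrays.

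Of 28 other basic helix-loop-helix factors and ID proteins, TWIST1 and HEY1 were tested. TWIST1, a mesenchymal regulator known from cranial development, stood at 0.69, 0.24, 0.64 and 0.48 in A46 and at 0.22, -0.47, 0.18 and 0.12 in M1. The areas did not overlap, as for 2.97% of the tested probes with A46 higher, and M1 replicate 2 lay far below the other M1 arrays. The difference of 0.50 ± 0.19 log2 units (SE) missed the threshold (limma adjusted p = 0.412, 0.0580 with the block). It passed with the replicate as a random block (limma adjusted p = 0.0303), and with the fixed block after normexp background correction (0.0327) or with an intensity trend (0.0304). HEY1, a Notch-responsive repressor, averaged 2.54 ± 0.17 in A46 and 2.58 ± 0.17 in M1 (SD, n = 4 each), a difference of -0.043 ± 0.14 log2 units whose sign changed with the setting (limma adjusted p = 0.969). None of the 10 reported partners and targets of TSHZ3 and BHLHE22, such as PRDM8 and CDH11, which mouse studies tie to Bhlhe22, had a named probe, and they were not analysed here.

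Of 24 oligodendrocyte markers 3 were tested, of which 2 passed with the block, both lower in A46, and 0 without it. Of all 14698 tested probes, 380 (2.59%) passed with the block, 237 of them lower in A46. The 3 oligodendrocyte markers averaged -5.54 to -5.07 over the A46 arrays and -4.42 to -3.70 over the M1 arrays. UGT8, which makes a main myelin lipid, was lower in A46 with the block (-1.64 ± 0.19 log2 units, blocked SE, limma adjusted p = 0.0287, 0.0624 without the block). So was ZNF488, an oligodendrocyte regulator (-1.37 ± 0.21, limma adjusted p = 0.0391, 0.0841 without it). ZNF488 was dim, at -7.10 to -6.19 in A46 and -5.65 to -4.90 in M1, though well above background on all arrays. For ZNF488 normexp gave a difference of -0.44, and the blocked call was lost without any 1 of the 4 pairs (limma adjusted p = 0.0521 to 0.164) and from the second spots alone (0.0590). The tetraspanin TSPAN2 differed by -0.38 ± 0.10 (blocked SE, blocked limma adjusted p = 0.111), and by -0.12 after normexp. It passed with a random block (limma adjusted p = 0.0344). KCNS1, a modifying potassium channel subunit and the 1 tested of 14 interneuron markers, was lower in A46 with the block (-0.73 ± 0.10, blocked limma adjusted p = 0.0340, 0.341 without it). ACKR1, which binds chemokines on venules and was the 1 tested of 12 endothelial markers, stood higher in A46 with the block (0.66 ± 0.11, blocked limma adjusted p = 0.0473, 0.430 without it). The blocked call of ACKR1 was lost after normexp (limma adjusted p = 0.0619), without scaling between arrays (0.0602), from the first (0.0543) or second spots alone (0.0643) and without any 1 of the pairs (0.0682 to 0.193). The blocked calls of UGT8 and KCNS1 were lost without the pair numbered 1, 2 or 4 (limma adjusted p = 0.112 to 0.168 and 0.117 to 0.177), where 0 to 3 of all probes passed. All 4 blocked marker calls were lost with no filter on dim probes (limma adjusted p = 0.109 to 0.142), where no probe passed. The part of these cell types in the differences of TSHZ3 and BHLHE22 was not tested.

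The other marker genes that could be tested did not pass in either fit: S100A10 of layer 5 neurons (0.064 ± 0.15), FGFR3 of astrocytes (0.052 ± 0.14) and HBE1 from the blood list (0.073 ± 0.34). These are log2 differences ± SE, with limma adjusted p of 0.959 to 0.979. Each changed sign under some settings. HBE1 was dim, at -6.61 to -5.32 in A46 and -6.44 to -5.36 in M1. HBG2, the other named gene of the blood list, was well above background on 5 of 8 arrays and was not tested. Its levels averaged -7.11 in A46 and -6.00 in M1, and were lower in A46 in each of the pairs. HBA1, HBA2 and HBB of that list had no named probe, so that the blood content of the tissue was not assessed. No named probe stood for the markers of glutamatergic neurons, of microglia or of smooth muscle, so that the labelled tissue could not be checked against its main neuronal markers.

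**Figure D5:**
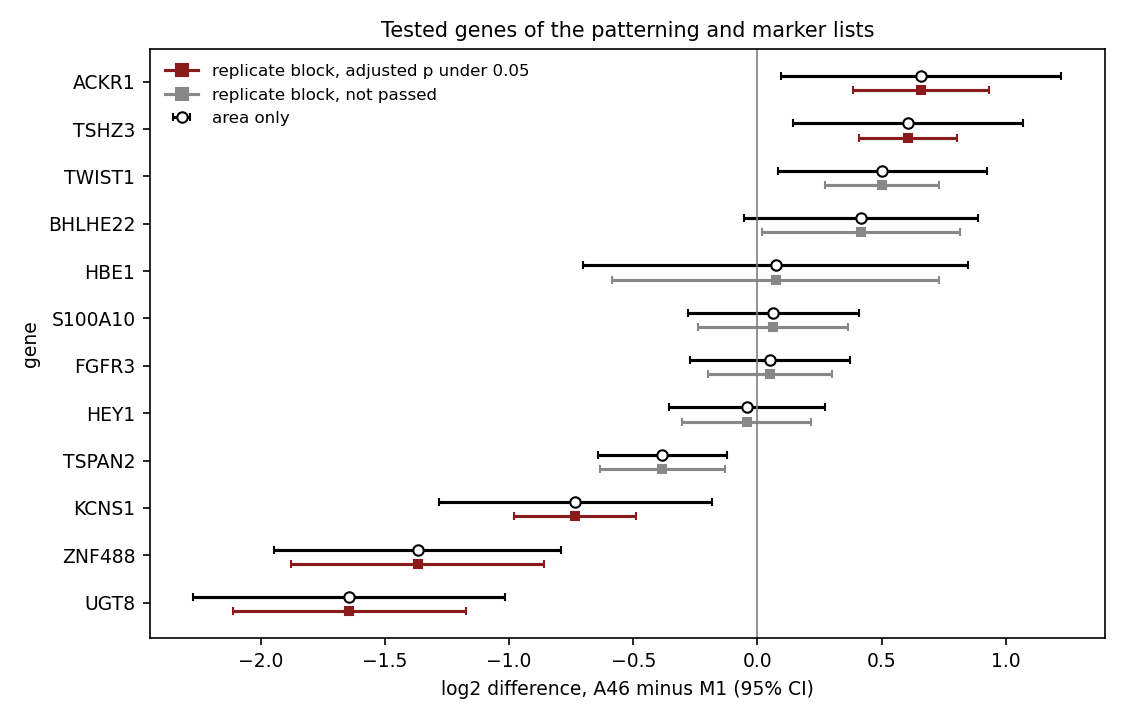
Log2 difference, A46 minus M1, with its 95% interval (x axis) for the 12 genes shown from the patterning and marker lists (y axis), open circles without the replicate block and squares with it, red squares where the adjusted p was under 0.05. TSHZ3 and ACKR1 pass with the block above 0, and UGT8, ZNF488 and KCNS1 below 0.

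Over the 8 arrays the levels of TSHZ3 and BHLHE22 followed each other in part, with a Pearson r of 0.78 and a Spearman rho of 0.52, and after the area means were taken out with r = 0.61. These arrays share animals and scan days, and the values describe only these 8 points. Among 510 other named genes detected over background on each of the 8 arrays, BHLHE22 ranked 7th by its r with TSHZ3, and 87th once the area means were taken out. Over 14054 probes it ranked 266th and 2762nd on these measures, and 237 probes had an r above 0.9 with TSHZ3 on the second. Of the 5 nearest to TSHZ3, 4 were NFKBIZ (r = 0.84), a nuclear regulator of inflammatory genes, MET (0.82), the receptor of hepatocyte growth factor, NELFA (0.80), a subunit of the negative elongation factor, and SPC24 (0.78), a kinetochore protein. Of the 5 nearest to BHLHE22, 4 were GRHL1 (0.88), a grainyhead-like transcription factor, MET (0.88), NEURL1 (0.86), a ubiquitin ligase, and DBN1 (0.84), an actin-binding protein of dendritic spines. MET was thus near to both.

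MET stood at -2.10, -2.10, -2.60 and -2.61 in A46 and at -2.43, -2.46, -2.47 and -2.81 in M1, where replicate 4 was lowest, and the later arrays were low in both areas as they were for TSHZ3. Its area difference was 0.19 ± 0.17 log2 units (SE, limma adjusted p = 0.860). NFKBIZ stood at -1.13, -0.97, -1.27 and -1.37 in A46 and at -1.23, -1.05, -1.40 and -1.49 in M1. The order of the replicate numbers was the same in both areas, as it was for TSHZ3. Its area difference was 0.11 ± 0.14 (SE, limma adjusted p = 0.916). MET and NFKBIZ were picked for their high r with TSHZ3, so that their likeness to it over the arrays follows from that choice. After the area means were taken out NFKBIZ was again nearest to TSHZ3 (r = 0.96), followed by MOSPD2 (0.93), a protein of membrane contact sites, the magnesium transporter NIPA1 (0.91), the leukocyte receptor LILRB1 (0.91) and the receptor TGFBR1 (0.90). For BHLHE22 the nearest were then DACT2 (0.92), SELENOO (0.90), MRPS27 (0.88), TES (0.88) and MET (0.87). These 5 and those of TSHZ3 had no gene in common. Of 14054 probes, 237 had an r above 0.9 with TSHZ3 on this measure and 83 with BHLHE22. Lists of 5 genes therefore say little about how the 2 genes differ. The values of r depended on the background correction: after normexp that of NIPA1 with TSHZ3 was 0.48, and that of NFKBIZ was 0.64 over levels and 0.90 over deviations.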

How the data were processed

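Total RNA of A46 and M1 was measured on 8 single-colour Agilent arrays. Per the file headers, the authors' scanner files were made with Agilent Feature Extraction 10.7.3.1, and the processed intensity of each spot was background-subtracted and detrended within the array, not scaled between arrays. The deposited series table holds log2 values of the same arrays. Differences between its columns followed those of the scanner values shifted by the 75th percentile, with r = 1.00 and a slope of 1.00, which settles scale and direction. The value subtracted from each probe is unknown. Its column medians were -0.046, -0.033, 0.083 and 0.086 for A46 replicates 1 to 4 and -0.024, -0.043, -0.062 and 0.088 for M1 replicates 1 to 4. Its normalization is not stated in the labels or headers.

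Control spots (1417 of 41851) and 0 to 220 outlier spots per array were left out, both spots of a probe were averaged as log2 processed intensity, and each array was shifted by its 75th percentile. A probe entered the test if every one of the 4 arrays of A46 or of M1 showed it well above background (14698 of 20217). limma 3.58.1 in R 4.3.3 was fitted with area as the only term, and p-values were adjusted by Benjamini-Hochberg across these 14698 probes, with a threshold of 0.05. Median SEs were 0.18 log2 units and 0.11 with the replicate block. The script was tested on simulated data. Tabulation used pandas 2.3.3 under Python 3.11.15.

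Gene names were taken from NCBI's RefSeq gene table (assembly T2T-MMU8v2.0) by transcript identifier, version dropped. This paired 942 of the 5583 probes that carried one, 898 of them with a gene name and 44 with a locus number alone. Where a gene had several probes the brightest was used. No coordinates or sequences are given.

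The labels do not tie a replicate number to an animal, although the 4 animals gave both areas. For the numbers 1 to 4, the A46 and M1 deviations from the area means correlated with r = 0.726, 0.634, 0.169 and 0.858, each over 0.1, so the numbers were taken to pair the arrays. Pairs 1, 2 and 4 each shared a scan day and pair 3 did not, so pairing and a shared scan day cannot be told apart in the 3 higher values. A46 replicate 3 correlated more with M1 replicate 4 (0.481), and A46 replicate 2 and M1 replicate 3, scanned on the same day, with r = 0.259. Apart from this, no label says how replicates of an area arose, so p-values reflect only the spread among these samples, possibly technical.

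The members, the 14 gene lists (224 genes, 12 tested) and the tests were chosen with earlier results of these data known. Named are all tested members of the family and patterning lists, of each marker list the member with the smallest p and any that passed, and for each of TSHZ3 and BHLHE22 the 5 genes with the highest r, over levels and over deviations from the area means, except items that are not reported here. TSPAN2, NEUROD4, NEUROG1, HBG2, PRDM8 and CDH11 were named in addition. Alternatives were normexp (offset 50, on the median spot and background signals, as the files hold no mean signal), quantile and median scaling, array weights, an intensity trend, other filters, the deposited values, scan day and replicate blocks, and leaving out arrays.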

Additional observations from a re-analysis of the deposited data

Results flagged for a closer look

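A single array stood far from its 3 companions in 3 of 26 groups of 4 values, a rule that chance meets in about 1 in 20 groups, or 1.3 here. The groups were the A46 and M1 levels of the 12 tested list genes and the pair differences of TSHZ3 and BHLHE22, and none of the 3 concerned TSHZ3 or BHLHE22. TWIST1 stood at -0.47 in M1 replicate 2, the others of M1 lying at 0.12 to 0.22. UGT8 stood at -1.14 in M1 replicate 2, the others lying at -2.28 to -2.13. ACKR1 stood at 1.54 in M1 replicate 4, an array of the later scan days, the others lying at 0.61 to 0.69.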

How the results depend on the processing

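TSHZ3 was higher in A46 in all 41 fits run (0.43 to 0.73 log2 units, limma adjusted p 0.0169 to 0.586), and so was BHLHE22 (0.25 to 0.73, adjusted p 0.0677 to 0.999), which passed in none. TSHZ3 passed with the replicate block as a fixed (0.61) or random term (0.61), and with that block after normexp (0.55), quantile (0.62) or median scaling (0.64), the deposited values (0.60), the filter on all arrays (0.61), an intensity trend (0.61), the later scan days as a covariate (0.61), no scaling between arrays (0.67), the first spots alone (0.66) and the second spots alone (0.55), and with the scan day as a random block (0.67), but not with the block and no filter on dim probes (adjusted p = 0.114). Leaving out 1 array or pair gave 0.47 to 0.72 for TSHZ3 and 0.25 to 0.56 for BHLHE22, and leaving out 1 array gave 0.073 to 0.33 for the difference between them.

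Of all probes, 27 passed (7 higher in A46). With the replicate block 380 passed, 984 with a random block, 487 after normexp (41 without the block), 386 after quantile and 409 after median scaling (203 of these higher in A46, against 143 of the 380), 385 with the deposited values, 398 with the filter on all arrays, 613 with an intensity trend (45 without the block), 344 without scaling between arrays (0 without the block, 594 at an unadjusted p under 0.05), 200 with the first spots (15 without the block) and 283 with the second. Array weights gave 138, the scan day 153 as a fixed and 722 as a random block, and the later scan days 71 as a covariate and 403 with the block. No filter gave 0 with and without the block (2955 and 1371 at an unadjusted limma p under 0.05), as did leaving out the later arrays (1159). Leaving out 1 array gave 0 to 6, and with the block leaving out the pair numbered 1, 2 or 4 gave 0 to 3 and that numbered 3 gave 403. HEY1 turned to 0.035 and 0.0092 with the scan day as a fixed and random block, 0.023 without the later arrays and 0.021 without scaling (leaving out 1 array, -0.10 to 0.035, and 1 pair with the block, -0.13 to 0.026). FGFR3 turned to -0.0017 with the later days as a covariate and -0.0058 with the block too (likewise -0.029 to 0.12, and -0.0058 to 0.14), and S100A10 ran from -0.022 to 0.17 and -0.034 to 0.17. HBE1 turned to -0.23, -0.14, -0.21, -0.17, -0.28 and -0.14 with the scan day fixed or random, without the later arrays, with them as a covariate, with the block too, and from the first spots with and without the block (-0.15 to 0.31, and -0.28 to 0.25). The causes were not tested. The slide as a random block could not be fitted, since only replicate 1 shared a slide between the areas. Fits on the later arrays, without scaling and on single spots, and settings of r, were chosen after seeing the data. The later-day covariate leaves the difference with the block to pairs 1, 2 and 4.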

Other observations

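The 2 spots of the BHLHE22 probe differed in the ratio of processed intensity to median signal over background. The files hold no mean signal, and the source of this difference was not tested. The first, in row 308 of 532, had a processed intensity of 0.870 to 1.06 times its median signal over background. The second, in row 518 and thus near an edge of the array, had 1.08 to 1.80 times that signal, the highest value being on A46 replicate 1. There the second spot was the dimmer of the 2 before processing, at 352 units against 562, and the brighter after it, at 632 units against 518. For TSHZ3, with spots in rows 224 and 362, the factors were 0.836 to 0.988 and 0.821 to 0.968. From the first spots alone BHLHE22 differed by 0.46 ± 0.21 log2 units (SE) between A46 and M1, and from the second alone by 0.37 ± 0.23, with limma adjusted p of 0.558 and 0.774 (0.212 and 0.311 with the replicate block).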
